A study of Mus musculus with 9 samples.

Results

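Kidney RNA was searched for long noncoding RNAs (lncRNAs) that lay outside the gene annotation used by the study, and 461 such transcripts were assembled from the sequencing reads. All 461 are described here, out of 53192 transcripts with a value in every library; the others were 2071 annotated lncRNAs and 50660 mRNAs. They are called assembled lncRNAs below, each with its LNC number as its identity. The 461 transcripts came from 361 loci, of which 301 held 1 transcript and the others 2 to 7.

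A lncRNA is a long transcript with no clear protein-coding potential. Many are present at a few copies or fewer per cell, are restricted to 1 tissue and stay in the nucleus, and some act on the transcription of genes beside them. An antisense lncRNA is read from the strand opposite a protein-coding gene, and a divergent one starts close to the start of a gene that is read the other way. Such transcripts are often missing from gene annotations, since they are scarce, and are then found by assembling the reads of the tissue itself.

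The renal cortex of 9 male mice was sequenced, 1 library per mouse and 3 mice per group, at 15 weeks of age. The control mice were db/m littermates, heterozygous for the db mutation of Lepr, the leptin receptor, and received a vehicle. The dbdb mice were homozygous db/db and received the same vehicle, and the dbR mice were db/db given rosiglitazone, an insulin-sensitizing drug that activates PPARγ, at 20 mg/kg/day by gavage for 8 weeks from 7 weeks of age. The mutation was germ-line in the C57BL/KsJ background, so every cell of the db/db mice carried it. Since the renal cortex is a mixture of cells, fewer cells of a type and less RNA per cell cannot be told apart.

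The libraries were much alike on the whole. The summed level of Lepr transcripts was 1.05 to 1.23 FPKM (fragments per kilobase of transcript, scaled to the mapped fragments of the library) in the control libraries and 0.304 to 0.652 in the 6 db/db libraries. The 6 proximal tubule markers summed to 2457 to 3169 FPKM, and the adrenal gland markers to 0 to 0.0193. Mitochondrial transcripts took 26.1% to 32.2% of all FPKM. Several other cell type lists moved with the groups. The 2 distal convoluted tubule markers summed to 154 to 173 FPKM in control and to 281 to 355 in db/db libraries, the 3 endothelial markers to 80.2 to 88.5 in control, 56.3 to 60.5 in dbdb and 80.5 to 96.2 in dbR, the 3 collecting duct markers to 81.8 to 102 in control and 117 to 203 in db/db, the 3 macrophage markers to 17.95 to 20.5 and 9.36 to 17.3, and the 2 B cell markers to 0.464 to 0.534 and 0.0248 to 0.295. Among the collecting duct markers, Aqp2 (28.02 to 37.1 FPKM in control, 55.3 to 121 in db/db) and Atp6v1g3 (10.4 to 11.8 and 14.8 to 23.6) did not overlap, whereas Aqp3 did (42.03 to 54.5 and 45.1 to 67.1). Of the 2 liver markers, Alb had 4.81 to 5.17 FPKM in control, 6.80 to 11.3 in dbdb and 13.9 to 17.4 in dbR, and Apoa1 had 0.192 to 0.637 over the 9 libraries with overlap of all groups. The 4 podocyte markers summed to 64.4 to 73.8 in control, 76.6 to 81.1 in dbdb and 69.4 to 84.5 in dbR, the 3 fibroblast and mesangium markers to 14.3 to 22.3, 11.4 to 16.7 and 18.4 to 25.3, and the 3 adipocyte markers to 0.188 to 0.757, 0 to 0.0757 and 0.0658 to 0.671. Haemoglobin transcripts (Hbb-bs and Hba-a1) summed to 69.5 in control replicate 1 and to 5.05 to 16.7 in the other 8 libraries. The part of these differences in the results below was not tested.

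The sequences of a few assembled lncRNAs carry what follows and are shown first, 5′ to 3′ as DNA letters, from the table of sequences that accompanied the study. That table held 86 of the 461, 1 of them whole and the others up to base 399. LNC_000287 (chr2:167847209-167847882, minus strand, GRCm38) had the highest level of all members, and bases 161 to 362 of its 382 are shown with the primer sites of the study's PCR assay in capitals.
LNC_000287: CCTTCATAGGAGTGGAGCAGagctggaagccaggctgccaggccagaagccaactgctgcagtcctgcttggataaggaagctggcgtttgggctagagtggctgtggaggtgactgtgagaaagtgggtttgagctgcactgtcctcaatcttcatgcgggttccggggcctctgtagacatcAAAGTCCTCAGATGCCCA

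The next set shows how far an assembled lncRNA was absent from a later annotation, GENCODE M21 on the same build, with the bases identical to an annotated transcript of the same place in capitals. LNC_000428 (chr8:116181433-116186073, minus strand), which was listed at 0 in every control library, matched the lncRNA gene 4930422C21Rik over all 399 bases searched, of which bases 1 to 120 are shown. LNC_000139 (chr14:123151675-123235908, plus strand), which was listed at 0 in every db/db library, shared bases 205 to 399 with the transcript of AC158982.1. The bases before 205 lay outside this match, in a search that kept only matches of 60 bases or more at 95% identity. LNC_000401 (chr8:10690029-10692145, plus strand) shared bases 138 to 399 with Gm44785, and LNC_000447 (chr9:44664309-44672545, minus strand) shared bases 308 to 399 with BC049987. The stretches of 120 bases across each border are shown.
LNC_000428: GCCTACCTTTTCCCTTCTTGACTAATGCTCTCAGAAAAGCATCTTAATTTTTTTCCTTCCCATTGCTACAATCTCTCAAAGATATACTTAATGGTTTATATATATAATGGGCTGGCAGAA
LNC_000139: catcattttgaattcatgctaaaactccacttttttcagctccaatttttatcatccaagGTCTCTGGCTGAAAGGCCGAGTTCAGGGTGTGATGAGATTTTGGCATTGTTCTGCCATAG
LNC_000401: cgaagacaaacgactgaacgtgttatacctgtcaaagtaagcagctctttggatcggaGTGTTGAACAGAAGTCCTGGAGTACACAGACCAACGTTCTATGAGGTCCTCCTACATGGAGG
LNC_000447: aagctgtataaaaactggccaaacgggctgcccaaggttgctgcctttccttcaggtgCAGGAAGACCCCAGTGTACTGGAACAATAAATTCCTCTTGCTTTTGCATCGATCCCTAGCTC

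In a further pair the shared bases belonged to a gene on the other strand or at another place. LNC_000381 (chr7:125954087-125959754, plus strand) held, at bases 216 to 372, the reverse complement of part of the Gsg1l transcript, which is read from the opposite strand. LNC_000321 (chr4:49302136-49336396, minus strand) held 68 bases, 294 to 361, that are identical to part of a transcript of Acnat2, whose gene lies outside the span of the member on the same chromosome, so reads from those bases could be placed at either.
LNC_000381: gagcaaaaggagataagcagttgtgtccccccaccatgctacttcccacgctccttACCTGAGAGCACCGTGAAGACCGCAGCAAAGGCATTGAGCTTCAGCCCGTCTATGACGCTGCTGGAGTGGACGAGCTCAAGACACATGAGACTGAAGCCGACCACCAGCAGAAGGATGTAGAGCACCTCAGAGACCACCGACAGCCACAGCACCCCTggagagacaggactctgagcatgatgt
LNC_000321: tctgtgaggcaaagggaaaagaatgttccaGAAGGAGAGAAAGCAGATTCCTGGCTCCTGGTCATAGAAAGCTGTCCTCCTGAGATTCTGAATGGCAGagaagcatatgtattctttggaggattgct

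The last set gives the first 100 bases of 4 members with large differences between control and db/db mice and of a neighbouring pair with small p-values after rosiglitazone. None of the 6 matched an annotated transcript over 60 bases or more at 95% identity, so no base is in capitals.
LNC_000126: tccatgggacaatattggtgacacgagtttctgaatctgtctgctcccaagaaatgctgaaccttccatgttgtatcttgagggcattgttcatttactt
LNC_000270: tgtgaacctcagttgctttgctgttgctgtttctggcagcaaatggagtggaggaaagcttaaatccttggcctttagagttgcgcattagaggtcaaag
LNC_000048: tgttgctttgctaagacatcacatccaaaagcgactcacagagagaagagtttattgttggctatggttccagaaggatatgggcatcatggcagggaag
LNC_000429: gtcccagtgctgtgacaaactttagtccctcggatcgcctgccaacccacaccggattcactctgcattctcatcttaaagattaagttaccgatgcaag
LNC_000332: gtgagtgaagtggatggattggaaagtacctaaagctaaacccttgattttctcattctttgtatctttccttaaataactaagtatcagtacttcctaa
LNC_000333: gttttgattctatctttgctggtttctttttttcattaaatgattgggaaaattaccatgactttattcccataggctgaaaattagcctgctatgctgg

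Over the 86 sequences, 15 had at least 1 such match. In 4 of the 15, LNC_000012, LNC_000298, LNC_000304 and LNC_000461, the matches were to more than 3 different genes, so reads from those bases could be placed at many loci. LNC_000298 and LNC_000304 are named for this alone, after it was seen.

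The assembled lncRNAs were short in exon number and broad in length. Every member had at least 2 exons, 273 had exactly 2 and 110 had 3, and the highest number was 8. The spliced length ran from 312 to 34294 nt with a median of 1521 nt, beside medians of 997 nt for the annotated lncRNAs and 1857 nt for the mRNAs (lengths of 2043 and 50107 transcripts from GENCODE M21). The genomic span had a median of 6078 nt, and a median of 37.6% of it was exonic. The shortest members were LNC_000186 (312 nt), LNC_000109 (315 nt) and LNC_000083 (323 nt). The longest were LNC_000293 (34294 nt), LNC_000164 (24086 nt) and LNC_000461 (23796 nt), all of them with only 2 or 3 exons. The longest one, LNC_000293, lay on chr3:56940122-57028002 at 0.347 to 0.433 FPKM in control, 0.659 to 1.05 in dbdb and 0.671 to 1.14 in dbR libraries, without overlap between control and the others, and its adjusted p in dbdb vs. control was 0.0634 (limma).

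The members lay on 20 chromosomes and 1 unplaced scaffold, 237 on the plus and 224 on the minus strand. The authors' files named 402 of them lincRNA, that is intergenic, and 59 antisense. Chromosome 12 held the most members, 36 at 20 loci, or 3.11 loci per 100 protein-coding genes, beside 1.64 over the genome. Chromosome X held 6 members at 6 loci, or 0.633 per 100 protein-coding genes. The loci were scattered: the median distance to the nearest other locus was 1702 kb, and 51 of 361 loci had another within 100 kb.

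By their place beside the protein-coding genes of GENCODE M21, 55 members overlapped a gene on the opposite strand and 27 a gene on the same strand. A further 45 were divergent, starting within 1 kb of the start of a gene read the other way, and 25 began within 10 kb of the 3′ end of a gene on the same strand. The remaining 309 were intergenic, a class without a bound on the distance to a gene. In all, 178 members overlapped a protein-coding gene or lay within 5 kb of one. The median distance to the nearest protein-coding gene was 16.5 kb, and 80 members lay more than 100 kb away. Divergent members were the shortest (median 1055 nt) and antisense members the longest (median 1888 nt). Although the transcripts were outside the annotation that the study used, 94 of the 461 overlapped a lncRNA gene of GENCODE M21 on the same strand.

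Levels were low. The mean FPKM over the 9 libraries had a median of 0.471, with the middle of the distribution (25th to 75th percentile) between 0.311 and 0.739. It was at least 1 in 84 members and at least 10 in 3. The median in each library was 0.392 to 0.540 for the assembled lncRNAs, 0.690 to 0.878 for the annotated lncRNAs and 0.204 to 0.231 for the mRNA transcripts, which kept this order in all 9 libraries. Only 58.0% of the mRNA transcripts reached the level tested, and over tested transcripts the order was another, with medians of the mean FPKM of 1.99 for mRNA, 0.767 for annotated lncRNAs and 0.472 for the assembled ones. The files hold no counts. In loci of 1 transcript, where reads need not be divided, the lowest values above 0 gathered at 0.0418 to 0.0502 FPKM times kb in the 9 libraries (medians of 3 to 12 values between 0.02 and 0.065, with 0 to 2 values below), which is about what 1 fragment is worth. A transcript of 1 kb at 0.1 FPKM thus rested on only a few fragments.

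**Figure D1:**
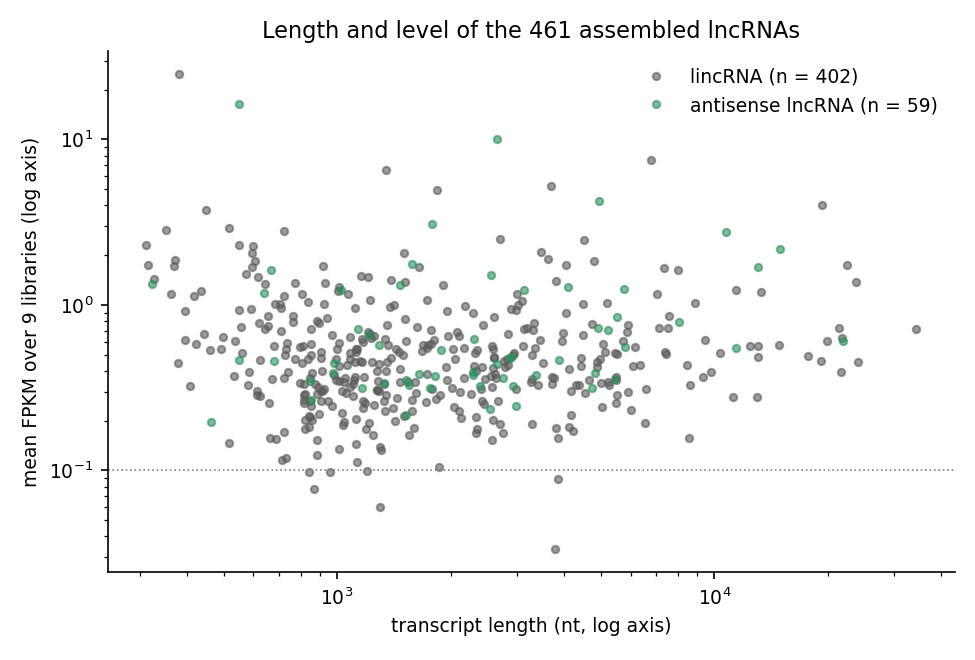
Each point is 1 of the 461 assembled lncRNAs, with its spliced length in nt on the x axis and its mean FPKM over the 9 libraries on the y axis, both on log axes; grey points are lincRNAs (n = 402), green points antisense lncRNAs (n = 59), and the dotted line marks 0.1 FPKM. Of the 461 points 272 lie between 0.3 and 1 FPKM, and a short transcript, LNC_000287, stands highest at 24.7 FPKM.

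A few members stood above the rest, and the 10 highest made up 23.8% of the summed level. LNC_000287 was first. LNC_000064, antisense to Chmp6, a gene of the ESCRT-III complex of endosomal sorting, had 16.5 to 20.1 FPKM in control, 12.5 to 15.6 in dbdb and 14.3 to 19.8 in dbR libraries. LNC_000175, antisense to the homeobox gene Pou6f1, had 8.46 to 10.2, 8.53 to 10.7 and 11.5 to 12.0 FPKM. In LNC_000175 the dbR libraries were above all others. LNC_000075 and LNC_000078 were isoforms of a locus of 5 members that started near Cys1, a gene of the primary cilium, at 4.57 to 8.08 and 3.39 to 7.63 FPKM over the 9 libraries. LNC_000363 lay 0.238 kb from Tmem176b at 6.53 to 10.1 FPKM, LNC_000459 overlapped the splicing factor gene Zrsr2 on the X chromosome at 3.66 to 5.79 FPKM, LNC_000015 had 3.55 to 8.07 FPKM and LNC_000012, 9.96 kb from Acmsd, a gene of tryptophan breakdown, had 2.73 to 6.83 FPKM, a value that its matches to several other genes leave uncertain. None of these 8 passed the test in any comparison. LNC_000199, the last of the 10, is given with the loci of several isoforms.

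The summed FPKM of all members was 378.1, 358.1 and 398.2 in the control, 398.6, 354.2 and 320.2 in the dbdb and 388.7, 347.3 and 364.7 in the dbR libraries. These sums overlapped. The mean difference was -20.5 for dbdb vs. control (exact permutation test, two-sided, p = 0.5, n = 3 per group), 9.24 for dbR vs. dbdb (p = 0.8) and -11.2 for dbR vs. control (p = 0.5), in a design whose smallest possible p is 0.10. Without the 3 members of the highest mean level the differences were -48.9 (means of 294.2 and 343.2, p = 0.1), 17.6 (p = 0.6) and -31.4 (p = 0.2) in the same exact test. After removal of mitochondrial transcripts and scaling to 1 common sum all 3 signs turned, to 17.0, -3.82 and 13.2, and without dbdb replicate 3 the difference between dbdb and control was -1.73. The number of members listed at 0 was 7 to 8 in the control libraries, 16 to 22 in the dbdb and 14 to 18 in the dbR libraries, without overlap between control and db/db.

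The comparison of dbdb with control mice asks which transcripts differ in the diabetic kidney. Fold changes below are of FPKM + 0.1 on the log2 scale, from a limma fit of all 31858 transcripts with a mean of at least 0.1 FPKM, which 454 members reached. A member was called at an adjusted p under 0.05 (Benjamini-Hochberg over all transcripts tested). In dbdb vs. control 66 of the 454 were called, or 14.5%, against 9.23% of all transcripts tested. Of these, 22 were higher (4.85% of members, 4.35% of all) and 44 lower (9.69% of members, 4.88% of all). The median log2 fold change was -0.11 over the members and 0.01 over all transcripts. After removal of the mitochondrial transcripts and scaling of each library to 1 common sum, 32 were called higher and 39 lower, on a scale whose median over all transcripts was 0.14. At an unadjusted p under 0.05 there were 156 members (34.4%), beside 24% of all transcripts. The groups did not overlap in 196 members (43.2%), beside 29.9% of all transcripts, and in none of the 66 called members did they overlap.

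**Figure D2:**
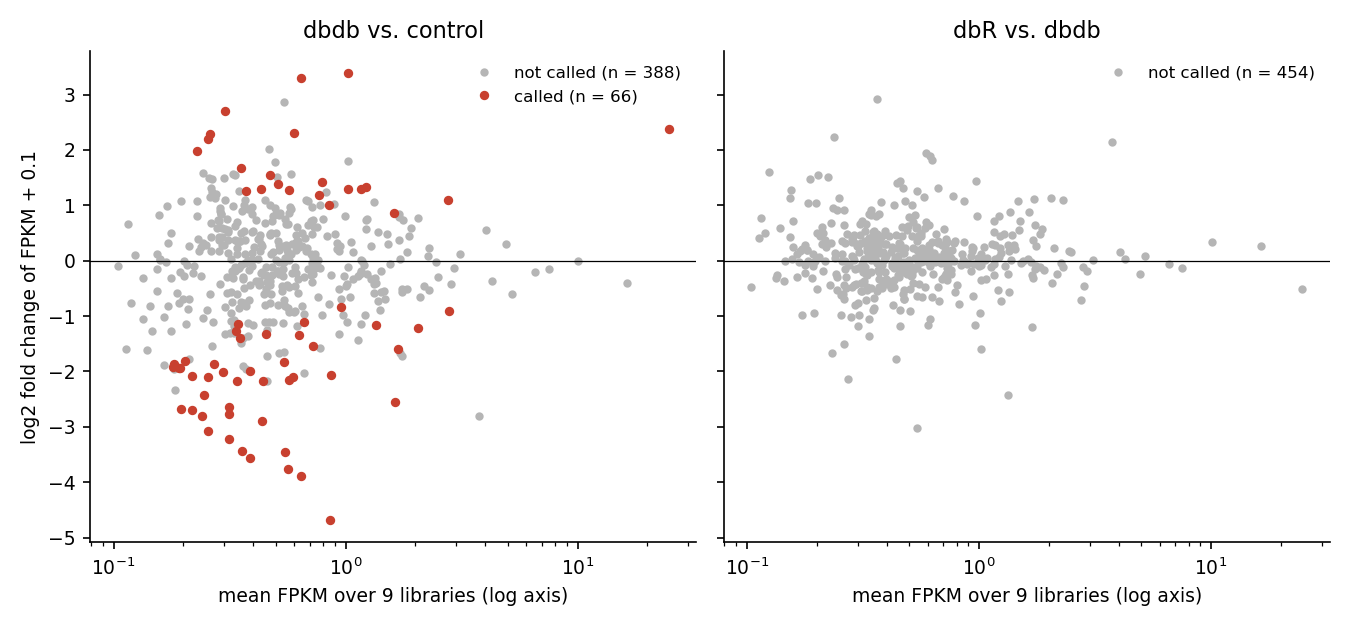
Each point is 1 of the 454 tested assembled lncRNAs, with its mean FPKM over the 9 libraries on the x axis (log axis) and its log2 fold change of FPKM + 0.1 on the y axis, for dbdb vs. control on the left and dbR vs. dbdb on the right. Red points are the 66 called at an adjusted p under 0.05 in dbdb vs. control; none was called in dbR vs. dbdb, and LNC_000287 is the red point at far right of the left panel.

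The 44 lower members had a median log2 fold change of -2.08 and a median length of 1528 nt, the 22 higher ones 1.40 and 4444 nt. Among members with 0.1 to 0.3 FPKM, 17.3% were called, against 2.42% of annotated lncRNAs and 1.47% of mRNA transcripts of the same level. At 0.3 to 1 FPKM the shares were 13.6%, 2.13% and 2.61%, and at 1 to 3 FPKM they were 15.1%, 5.05% and 6.40%. At 3 to 10 FPKM none of 8 members was called, against 12.6% and 11.9%, and at 10 FPKM or more 1 of 3 was, against 21.6% and 23.0%. With only transcripts of at least 1 FPKM tested, 13 of 84 members were called (15.5%), against 16.7% of all, 8 of them higher and 5 lower. The level is the mean over all 9 libraries, so a member that fell to 0 in db/db mice was moved to a lower range by its own fall. The assembly was made from these same libraries, and the part of that choice in the shares was not tested. When FPKM was summed per locus, so that isoforms no longer divided the reads, 116 of 361 loci were called (32.1%, 47 higher and 69 lower), against 24.1% of all loci and genes. Without control replicate 1, 2 or 3 the count of called members was 43, 39 or 38, and without dbdb replicate 2 or 3 it was 41 or 37, in fits that called 5.42% to 6.65% of all transcripts. The parts called higher and lower were 9 and 29 without control replicate 3 and 9 and 28 without dbdb replicate 3.

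**Figure D3:**
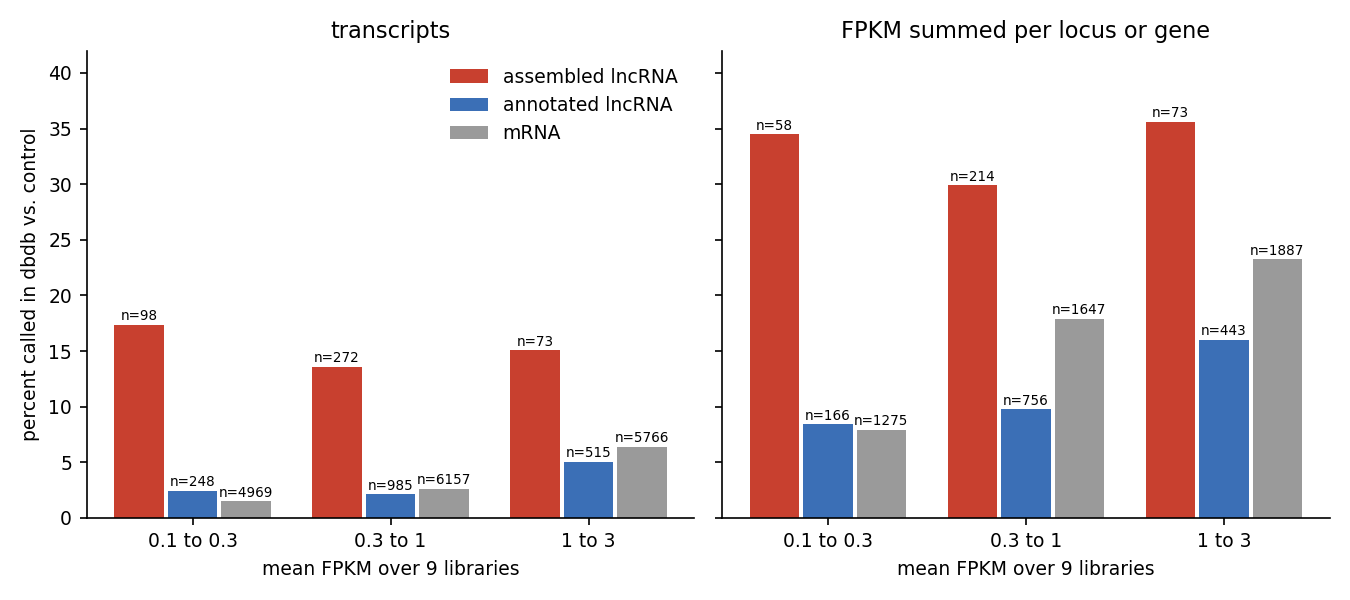
Bars give the percent called in dbdb vs. control for assembled lncRNAs (red), annotated lncRNAs (blue) and mRNAs (grey) in the 3 ranges of mean FPKM over the 9 libraries that held the most members, with the number tested above each bar; transcripts are on the left and FPKM summed per locus or gene on the right. In each range of both panels the red bar is the highest, as at 0.3 to 1 FPKM with 13.6% against 2.13% and 2.61% of transcripts.

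By place, 14 of 55 tested members antisense to a protein-coding gene were called (25.5%, 4 higher, 10 lower) and 45 of 302 intergenic ones (14.9%, 16 higher, 29 lower). Also called were 4 of 25 that followed a gene on the same strand (16%), 2 of 45 divergent ones (4.44%, both lower) and 1 of 27 on the same strand as a gene they overlapped (3.7%). The shares called were 14.5% over all members and 9.23% over all transcripts, and differences between places were not tested. By chromosome, called members were found on every chromosome that held members except 1 and X, with 17 and 6 members.

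Some members were found in all control libraries and were close to absent in all 6 db/db libraries, treated or not. With bounds set after the values were seen, at least 0.25 FPKM in every control and under 0.02 in every db/db library, 8 of the 454 members had this pattern (1.76%), against 17 of all 31858 transcripts (0.0534%), the others being 1 annotated lncRNA and 8 mRNA transcripts. LNC_000126 (chr13:71553191-71555425, 402.5 kb from the homeobox gene Irx1) had 1.41, 0.423 and 3.96 FPKM in the control libraries and was listed at 0 in all 6 db/db libraries. LNC_000139, shown above, had 1.05, 0.489 and 3.54 in control and 0 in the 6 others. LNC_000270 (chr2:174019248-174022284, 54.0 kb from Stx16, a syntaxin of the Golgi) had 0.576, 0.926 and 1.73 in control and 0 in the others. In all 3 the third control library was the highest, and control and db/db libraries did not overlap.

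LNC_000048 (chr10:126550737-126605104) had 0.486, 0.941 and 0.876 FPKM in control libraries and was listed at 0 in the 6 others. LNC_000141 (chr14:123269751-123321491, plus strand) had 0.329, 0.977 and 0.459 in control and 0 in the others. LNC_000141 began 33.8 kb after the end of LNC_000139 and overlapped Nalcn, a sodium leak channel gene read from the opposite strand. LNC_000140, an isoform of the LNC_000139 locus, was also listed at 0 in all db/db libraries, and in control it had 1.31 FPKM in replicate 2 and under 0.001 in the others. All 3 transcripts were thus listed at 0 in every db/db library. Nalcn itself had 0.00491 to 0.0601 FPKM over the 9 libraries and was below the level tested.

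Adjusted p-values in dbdb vs. control were 0.0095 for LNC_000126, 0.00771 for LNC_000139, 0.00228 for LNC_000270, 0.00215 for LNC_000048 and 0.00777 for LNC_000141 (limma). All 5 passed the level filter through the control libraries alone, so a member of this kind had to differ between the groups to be tested, and these p-values are a description. LNC_000141 fell below the filter without control replicate 2. No fold change is given for them, since no value stands in the db/db libraries. LNC_000126 and LNC_000139 lost the call with a pseudocount of 1 (0.053 and 0.0513) and kept it without any 1 library. Another member of the 8, LNC_000236, an antisense transcript of Arhgap26 on chromosome 18, had 0.489, 0.256 and 1.21 FPKM in control and 0 in the others, and was below the filter without control replicate 3.

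LNC_000430 (chr8:117739884-117748239, minus strand) had 0.976, 0.795 and 1.03 FPKM in control libraries, 0.0082, 0.00799 and 0.0156 in dbdb and 0.00678, 0 and 0 in dbR. It overlapped Hsd17b2, which encodes an enzyme that inactivates sex steroids, on the opposite strand. Hsd17b2, with all its transcripts summed, had 6.09, 5.35 and 11.6 FPKM in control, 0.997, 0.728 and 0.882 in dbdb and 1.03, 0.541 and 1.24 in dbR libraries. Both were lower in dbdb than in control, by a log2 fold change of -3.22 ± 0.33 (SE, n = 3 per group, adjusted p = 0.00102) for LNC_000430 and of -2.93 ± 0.33 (adjusted p = 0.000305) for Hsd17b2. That of LNC_000430 was -0.93 with a pseudocount of 1 and -5.53 with 0.01. LNC_000430 passed the level filter through the control libraries alone, so its p-value is a description. The libraries were made strand-specific, but the strand setting of the counting was not given in the sources used here.

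LNC_000202 (chr16:20444864-20471092, minus strand, 3 exons) had 2.59, 1.71 and 3.44 FPKM in control libraries and under 0.001 in every db/db library. It passed the level filter through the control libraries alone, so its adjusted p in dbdb vs. control (0.000287, limma) is a description. With db/db values this near 0, its log2 fold change of -4.69 ± 0.35 was set by the pseudocount, and it was -1.81 with a pseudocount of 1 and -7.92 with 0.01. Its isoform LNC_000201, with 2 exons on nearly the same span, had 1.51, 1.85 and 0.941 in control, 0.468, 0.471 and 0.312 in dbdb and 0.525, 0.198 and 0.248 in dbR libraries, so the locus was not silent. The call of LNC_000201 in dbdb vs. control (adjusted p = 0.0371) held in 9 of 18 alternative fits, with adjusted p up to 0.117, and was lost without control replicate 1 or 2, without any 1 of the dbdb libraries and without dbR replicate 3. Summed, the 2 isoforms fell by 3.00 on the log2 scale (adjusted p = 0.000113). Their nearest gene, Abcc5, an exporter of cyclic nucleotides 18.5 kb away, had 7.54 to 10.1 FPKM in control and 7.49 to 9.01 in dbdb (adjusted p = 0.568).

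LNC_000301 (chr3:149274352-149279982) had 1.09, 1.05 and 2.48 FPKM in control libraries and at most 0.167 in db/db libraries, with a log2 fold change of -3.45 ± 0.54 in dbdb vs. control (adjusted p = 0.00641), which was -1.22 with a pseudocount of 1 and -5.77 with 0.01. LNC_000230, a transcript of 6 exons antisense to the kinase gene Camk4 on chromosome 18, had 1.09, 0.662 and 1.70 in control and 0 to 0.0373 in db/db libraries. It passed the level filter through the control libraries alone, so its adjusted p in dbdb vs. control (0.00172, limma) is a description. No fold change is given for it either. Its isoforms LNC_000229 and LNC_000231 were called lower as well (adjusted p = 0.0206 and 0.0366), calls that held in 13 and 7 of 18 alternative fits, with adjusted p up to 0.0751 and 0.108. The first was lost without control replicate 2 or 3 or dbdb replicate 1 or 2, the second without control replicate 1 or 3, any 1 dbdb library or dbR replicate 1 or 2. Camk4 itself had 0.336 to 0.393 FPKM in control and 0.287 to 0.453 in dbdb (adjusted p = 0.901).

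**Figure D4:**
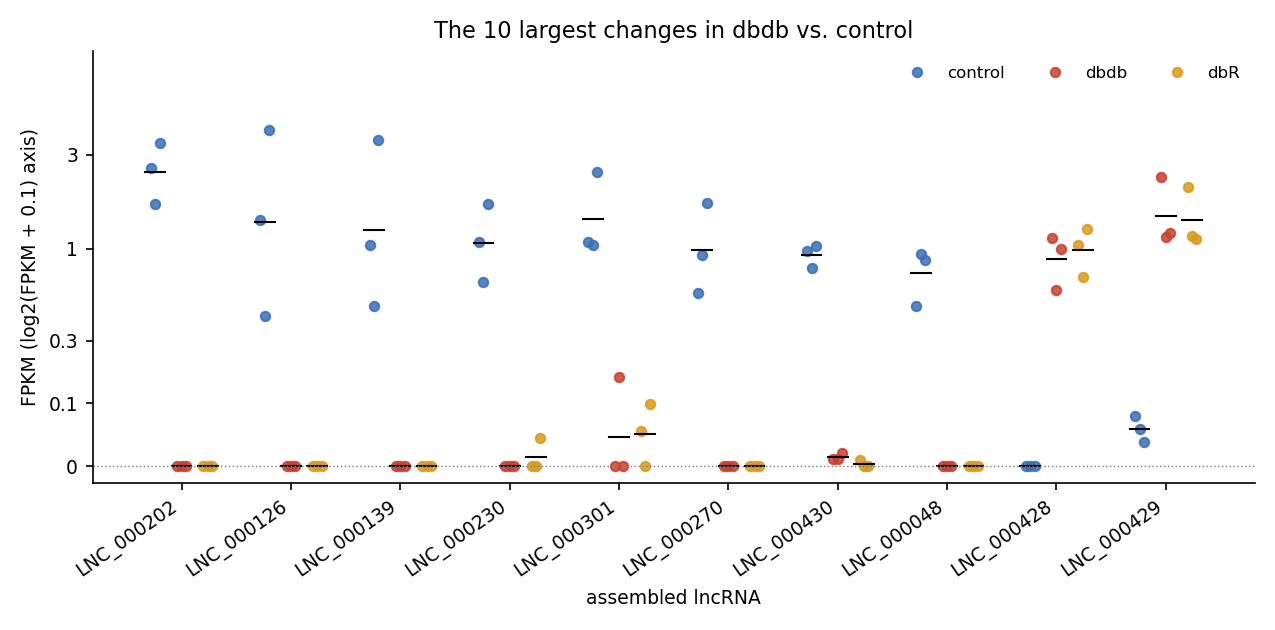
Points give the FPKM of the 10 assembled lncRNAs with the largest called change in dbdb vs. control at a pseudocount of 0.1, in each of 3 control (blue), 3 dbdb (red) and 3 dbR (yellow) libraries, on an axis of log2(FPKM + 0.1); black lines are group means on that scale and the dotted line is 0 FPKM. The 8 members at left stand between 0.423 and 3.96 FPKM in control and at or near 0 in db/db libraries; the 2 at right have the opposite pattern.

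The opposite pattern, at least 0.25 FPKM in every db/db library and under 0.02 in every control, was met by 1 member and by 10 of all transcripts tested (0.0314%). This was LNC_000428, which was listed at 0 in all 3 control libraries. It had 1.14, 0.599 and 1.0 FPKM in dbdb and 1.05, 0.707 and 1.26 in dbR libraries. It passed the level filter through the db/db libraries alone, so its adjusted p in dbdb vs. control (0.001, limma) is a description. LNC_000429, on the same strand 79.1 kb away (chr8:116265138-116271454), had 0.0744, 0.0515 and 0.0303 in control, 2.32, 1.15 and 1.21 in dbdb and 2.08, 1.17 and 1.13 in dbR libraries. The log2 fold change of LNC_000429 was 3.39 ± 0.36 (adjusted p = 0.0011), and it was 1.25 with a pseudocount of 1 and 4.65 with 0.01. All control values of LNC_000429 were under 0.1 FPKM, so it too passed the level filter through the db/db libraries, and its p-value is a description. The nearest protein-coding gene of LNC_000428 and LNC_000429, Dynlrb2, was 318.9 and 233.5 kb away.

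LNC_000287 was the member with the highest level. It had 5.58, 6.84 and 9.36 FPKM in control, 62.1, 33.1 and 25.5 in dbdb and 23.4, 22.1 and 34.3 in dbR libraries. All db/db libraries were above all control libraries, and dbdb and dbR libraries overlapped. In dbdb vs. control LNC_000287 rose by 2.38 ± 0.33 on the log2 scale (adjusted p = 0.00359) and was called in all 19 alternative fits. The nearest protein-coding gene was Ptpn1, 84.2 kb away, which encodes the phosphatase PTP1B that acts on the insulin and leptin receptors. Ptpn1 had 8.67 to 9.84 FPKM in control, 13.1 to 16.7 in dbdb and 10.2 to 12.0 in dbR libraries, a log2 fold change of 0.72 in dbdb vs. control (adjusted p = 0.00118).

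Other rises were smaller in level. LNC_000321, the long transcript of 21904 nt shown above, had 0.187, 0.163 and 0.117 FPKM in control and 1.26, 1.12 and 1.12 in dbdb libraries (2.32 ± 0.32, adjusted p = 0.00329, and 0.91 with a pseudocount of 1 or 2.85 with 0.01). It overlapped Plppr1 on the opposite strand, a lipid phosphatase-related gene at 0.0912 to 0.354 FPKM in control and 0.447 to 0.543 in dbdb. LNC_000381, antisense to Gsg1l, had 0.401, 0.510 and 0.517 FPKM in control, 1.47, 1.34 and 1.22 in dbdb and 1.87, 1.86 and 1.85 in dbR libraries. LNC_000381 and the falls of LNC_000401 and LNC_000447, which are named for their sequences after their values were seen, were called in both comparisons with control. LNC_000401 had 2.73 to 4.61 FPKM in control and 0.860 to 1.69 in the 6 db/db libraries, and its call in dbdb vs. control was lost without control replicate 3 or dbdb replicate 3 (adjusted p = 0.0505 and 0.0509). LNC_000447, 0.688 kb from the trehalase gene Treh, had 2.58 to 3.97 and 0.711 to 1.20.

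Genes beside the members were read as sums of their transcripts. The members had 337 different nearest protein-coding genes, of which 293 were tested and 88 called in dbdb vs. control, or 30.0%, beside 25.1% of all protein-coding genes tested. Of the called members, 21 had a tested gene that overlapped them or lay within 10 kb, 19 genes in all. Of these 19 genes 10 were called (52.6%), and in each of the 10 the gene and the member moved the same way. Besides Hsd17b2, these included Atp11a, a phospholipid flippase gene 4.43 kb from LNC_000402, which fell by 2.02 on the log2 scale while LNC_000402 fell by 2.15. Pim3, a kinase gene, lay 9.97 kb upstream of LNC_000172, and Sult1b1, a sulfotransferase gene, lay opposite LNC_000331. Gene and member are not independent where reads of one could be counted for the other. LNC_000402 and Atp11a were chosen after their values were seen.

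The comparison of dbR with dbdb mice asks what rosiglitazone changed in the diabetic kidney. No member was called, and 4 of all 31858 transcripts were (0.0126%). At an unadjusted p under 0.05 there were 38 members (8.37%), beside 10.2% of all transcripts. The groups did not overlap in 71 members (15.6%), beside 16.1%. The median log2 fold change over the members was 0.04. Summed per locus, none of 361 was called, beside 0.399% of all loci and genes. The values that follow are therefore those of the smallest p-values, none of which passed the correction.

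The smallest p among the members was that of LNC_000332 (chr5:89245521-89254058, plus strand), which had 0.644, 0.724 and 0.581 FPKM in dbdb and 0.204, 0.0321 and 0.161 in dbR libraries. Control libraries had 0.373, 0.612 and 0.600. The dbR libraries were thus below both other groups, with a log2 fold change vs. dbdb of -1.77 ± 0.38 (adjusted p = 0.182, limma). LNC_000333 (chr5:89254449-89265797) began 0.391 kb after it on the same strand and had 0.223, 0.516 and 0.414 in dbdb and 0.0633, 0.0343 and 0.0458 in dbR libraries (-1.67 ± 0.39, adjusted p = 0.206). With a pseudocount of 1 the log2 fold changes were -0.55 for LNC_000332 and -0.40 for LNC_000333, and with 0.01 they were -2.51 and -2.72. They began 5.87 and 14.8 kb beyond the 3′ end of Slc4a4, the basolateral sodium bicarbonate cotransporter of the proximal tubule, on its strand. Slc4a4 had 728.9 to 963.5 FPKM in dbdb and 876.3 to 933.5 in dbR libraries (adjusted p = 0.854).

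LNC_000411 had 0.578, 0.507 and 0.0323 FPKM in control, under 0.003 in every dbdb library and 0.437, 0.595 and 1.11 in dbR (adjusted p = 0.183 vs. dbdb). Its isoform LNC_000410 had 0.188, 0.366 and 0.536 in dbdb libraries, so the locus as a whole was present there. LNC_000062 had 0.377, 0.229 and 0.0673 in dbdb and 1.13, 0.947 and 0.943 in dbR libraries. LNC_000061, 112.6 kb from it on chromosome 11 and in the span of the same annotated lncRNA gene, 2610035D17Rik, had 0.302, 0 and 0.143 in dbdb and 0.495, 0.607 and 1.24 in dbR. In both, the dbR libraries were above all dbdb libraries. Control libraries had 0.729, 0.278 and 0.861 for LNC_000062, all below dbR, and 1.14, 0.587 and 0.820 for LNC_000061, which overlapped dbR. LNC_000087 had 1.79, 1.40 and 1.47 FPKM in control, 0.271, 0.351 and 0.257 in dbdb and 1.03, 0.563 and 0.649 in dbR, so that the 3 groups did not overlap. Its fall in dbdb vs. control was called (-2.07 ± 0.27, adjusted p = 0.00265), and its difference in dbR vs. dbdb was not (1.08 ± 0.27, adjusted p = 0.226). With a pseudocount of 1 these were -0.98 and 0.43. LNC_000344 and LNC_000184 were lower and LNC_000295 higher in dbR than in dbdb libraries without overlap, at adjusted p-values of 0.265, 0.279 and 0.272.

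The study listed 6 assembled lncRNAs as moving one way in dbdb vs. control and the other way in dbR vs. dbdb, a list chosen on these same samples. In dbdb vs. control, LNC_000287, LNC_000331, LNC_000321 and LNC_000172 were called higher, and LNC_000189 and LNC_000167 were not called (adjusted p = 0.0977 and 0.197), although both were with FPKM summed per locus (adjusted p = 0.0274 and 0.0256). In dbR vs. dbdb, where limma called 4 of all 31858 transcripts, none of the 6 was called. LNC_000321 had the smallest p of them, with 0.627, 0.278 and 0.548 FPKM in dbR libraries, between the other groups and without overlap (-1.17 ± 0.32, adjusted p = 0.256, and -0.55 with a pseudocount of 1). LNC_000331 had 1.92, 1.63 and 1.86 in control, 3.42, 3.61 and 4.99 in dbdb and 2.09, 1.92 and 3.34 in dbR (-0.71 ± 0.23, adjusted p = 0.335). Its dbR libraries were below all dbdb libraries and overlapped control. Its call in dbdb vs. control was lost without control replicate 2 or 3 or dbdb replicate 3 (adjusted p = 0.0659, 0.0586 and 0.0653). LNC_000172 had 0.188, 0.198 and 0.197 in control, 0.601, 0.740 and 0.983 in dbdb and 0.260, 0.538 and 0.559 in dbR. Its groups did not overlap, and its call in dbdb vs. control was lost without any 1 of the control libraries or without dbdb replicate 2 or 3 (adjusted p = 0.0608 to 0.0814).

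Pim3, next to LNC_000172, had 44.4 to 54.2 FPKM in control, 83.4 to 116.1 in dbdb and 58.3, 48.1 and 99.6 in dbR libraries. Unlike those of LNC_000172, its dbR libraries overlapped both control and dbdb. Sult1b1, opposite LNC_000331, had 3.52 to 3.89 in control, 5.64 to 7.74 in dbdb and 3.66, 3.63 and 6.92 in dbR. In both genes dbR replicate 3 was within the range of dbdb and the other dbR libraries were below it. LNC_000189 and LNC_000167 overlapped between dbdb and dbR. Of the study's other listed members, LNC_000400 had 0.398 to 0.432 FPKM in dbdb and 0.692 to 1.04 in dbR (adjusted p = 0.345), LNC_000225 had 0.193 to 0.283 and 0.345 to 0.543 (adjusted p = 0.471) and LNC_000267 had 0.861 to 1.07 and 1.09 to 1.96 (adjusted p = 0.493).

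**Figure D5:**
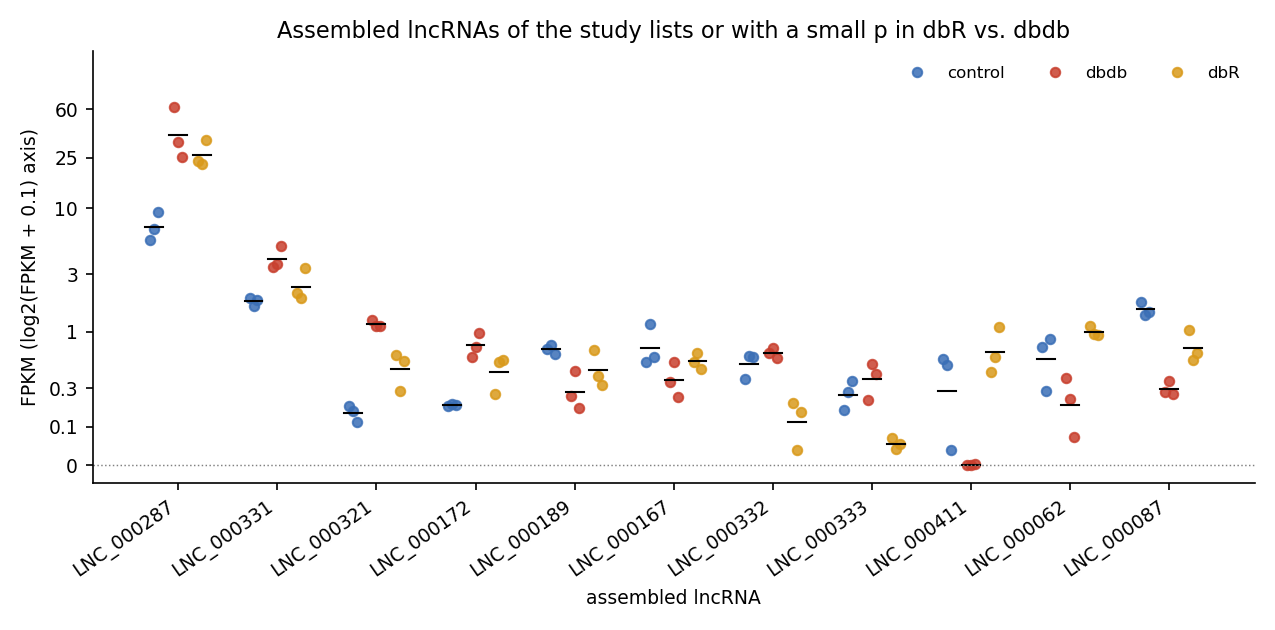
Points give the FPKM of 11 assembled lncRNAs in each of 3 control (blue), 3 dbdb (red) and 3 dbR (yellow) libraries on an axis of log2(FPKM + 0.1), with group means on that scale as black lines. The 6 at left are those the study listed as moving both ways and the 5 at right are among the smallest p-values in dbR vs. dbdb; LNC_000287 stands highest, at 25.5 to 62.1 FPKM in dbdb libraries, and no difference between dbR and dbdb passed the correction.

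Against control, dbR mice were compared in the same fit, with the same control libraries as the dbdb mice. In dbR vs. control 70 of 454 members were called (15.4%), against 8.3% of all transcripts, 25 higher (5.51% of members, 3.93% of all) and 45 lower (9.91% of members, 4.37% of all). Summed per locus, 108 of 361 were called, against 21.8% of all loci and genes. At an unadjusted p under 0.05 there were 151 members (33.3%), beside 22.4% of all transcripts, and the groups did not overlap in 183 (40.3%), beside 29%. LNC_000202 had an adjusted p of 0.000406, LNC_000428 of 0.000929 and LNC_000430 of 0.00099 (limma). Each of these passed the level filter only through the control or only through the db/db libraries, so these p-values are a description. Members that were called against control in dbR had a median log2 fold change of 1.29 where higher and -1.97 where lower. Without control replicate 1, 2 or 3 the count was 37, 35 or 28, and without dbR replicate 1, 2 or 3 it was 41, 34 or 33, in fits that called 4.70% to 5.99% of all transcripts. With the replicate number as a block it was 38, or 8.37%, against 5.74% of all. The parts called higher and lower were 5 and 23 without control replicate 3 and 8 and 30 with the block. With only the 6 libraries of the comparison they were 7 and 34.

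At some loci with several isoforms, the FPKM listed for single isoforms varied between libraries of the same group. The locus with the most members, on chr12:16232351-16289573, gave 7 isoforms, LNC_000067 to LNC_000073, over the annotated lncRNA gene Gm48606. LNC_000067 ranged from 0.197 to 1.65 FPKM within the dbdb libraries alone, and LNC_000072 from 0.022 to 0.600. None of the 7 was called in any comparison, and the locus sum had a log2 fold change of 0.14 in dbdb vs. control (adjusted p = 0.552). LNC_000199, antisense to the splicing regulator Rbfox1, had 3.51, under 0.001 and 1.57 FPKM in dbdb, 5.14 to 6.25 in control and 2.82 to 5.13 in dbR libraries. Its isoform LNC_000198 had 1.86 in the dbdb library where LNC_000199 was near 0. LNC_000199 was not called (adjusted p = 0.162), whereas the sum of both isoforms fell by 1.56 on the log2 scale (adjusted p = 0.00447).

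In 13 members 1 library of a group was at least 5 times the next and at least 1 FPKM, bounds set after the values were seen. All 13 were under 1000 nt. LNC_000349 (408 nt) had 2.23 FPKM in control replicate 3 and 0 in the other 2 control libraries, LNC_000250 (379 nt) had 2.45 in the same library and 0.272 and 0 in the others, and LNC_000303 (394 nt) had 2.42 in dbR replicate 1 and 0 in the other 2. LNC_000107 (328 nt) had 4.45 in control replicate 1 against 0.402 and 0.768. LNC_000343 (362 nt) had 4.0 in dbR replicate 3 against 0.255 and 0.569. None of the 13 was called in any comparison. LNC_000140 and LNC_000198, described above, were among them.

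The db mutation lies in Lepr on chromosome 4, and 2 members lay within 10 Mb of that gene. LNC_000311 (chr4:99278988-99280850, 2437 kb from Lepr) had 0.517, 0.0594 and 0.111 FPKM in control, 0.976, 0.891 and 0.406 in dbdb and 0.850, 0.817 and 0.627 in dbR libraries. LNC_000323 (chr4:97775562-97777532, 3940 kb from Lepr) had 0.0572, 0.0592 and 0.165 in control, 0.425, 0.414 and 0.231 in dbdb and 0.199, 0.650 and 0.187 in dbR libraries. In LNC_000323 all db/db libraries were above all control libraries. In dbdb vs. control LNC_000311 had a log2 fold change of 1.57 (adjusted p = 0.11) and LNC_000323 one of 1.25 (adjusted p = 0.153), so neither was called. Without control replicate 1, LNC_000311 was called (adjusted p = 0.0251), as it was with FPKM summed per locus (adjusted p = 0.0405).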

How the data were processed

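Per the labels and the study's methods, RNA of renal cortex was depleted of ribosomal RNA, made into strand-specific libraries, aligned to GRCm38.p2 with TopHat 2.0.9 and assembled with Scripture and Cufflinks 2.1.1. The authors deposited FPKM values per transcript and library, computed by Cufflinks, which divides reads among isoforms. No counts are held, so depth is known only by what about 1 fragment is worth, and precision rests on 3 mice per group.

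The FPKM values were tested with limma 3.58.1 (R 4.3.3) on log2(FPKM + 0.1), with a variance trend, 1 model of 3 groups and all 31858 transcripts with a mean of at least 0.1 FPKM. Errors are limma standard errors. Transcripts are not replicates, and p-values measure the spread between mice. The model was checked on simulated data. Positions were compared with GENCODE M21 (GRCm38), and sequences with its transcripts by blastn. Samples were grouped by title.

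The members and lists were chosen with earlier results of these data known. Members named are the 10 largest called changes per comparison without overlap of the groups (or the 10 smallest p), the 10 highest, 3 longest and 3 shortest, the study's listed ones, those within 10 Mb of Lepr, the largest locus and those with 1 library far from its group. Others are said to be chosen after their values were seen. Alternatives were other pseudocounts, filters and scalings, sums without the 3 highest members, a replicate block, sums per locus and leaving out each library. Same-numbered libraries did not deviate together (r from -0.033 to 0.026 over 9 pairs).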

Additional observations from a re-analysis of the deposited data

How the results depend on the processing

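The count of called members depended on the processing. In dbdb vs. control (66) it was 13 with a mean of at least 1 FPKM, where 84 members were tested (15.5%, against 16.7% of all transcripts). It was 116 of 361 with FPKM summed per locus (32.1%, against 24.1% of all loci and genes), and 37 to 61 without 1 library. In dbR vs. control (70) it was 13 (15.5%, against 15.5%), 108 (29.9%, against 21.8%) and 28 to 57 in the same order. The fits without 1 library called 5.42% to 8.87% of all transcripts in dbdb vs. control and 4.70% to 7.8% in dbR vs. control. In dbR vs. control the count was 38 with the replicate block (8.37%, against 5.74%) and 41 with only the 6 libraries of the comparison (8.97%, against 6.47%). With the replicate block dbdb vs. control had 45 (9.91%, against 6.25%). Same-numbered libraries share only a number. In dbR vs. dbdb the count was 0 in every fit run. The summed FPKM of all members differed by 17.0 in dbdb vs. control, -3.82 in dbR vs. dbdb and 13.2 in dbR vs. control after removal of mitochondrial transcripts and rescaling of each library to 1 common sum, each with the sign turned. Without 1 library it ranged from -40.9 to -1.73, from -9.50 to 29.7 and from -22.1 to -1.18, and dbR vs. dbdb turned to -9.50 without dbdb replicate 3 and to -1.67 without dbR replicate 1. Of 37 calls of members put through the alternatives, 26 held in every one in which the member was tested (LNC_000141 was not tested without control replicate 2, nor LNC_000236 without control replicate 3), and 11 were lost in at least 1, those of LNC_000126, LNC_000139, LNC_000172, LNC_000201, LNC_000229, LNC_000231, LNC_000301, LNC_000331 and LNC_000401. The cause of these shifts was not tested.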
